A study of Danio rerio with 8 samples.

Results

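The 40 genes described here are zebrafish genes of DNA replication and cell division, followed in the livers of male fish kept in river water. They were chosen by name from what they do, with earlier results of these data known. Among them are *cdc6*, *cdc7* and *cdc20*, which the study reports as upregulated at H4. Probes were found for 34 of the 40 through the accession of each probe. This gave 84 probes of the 43603 on the array and 34 of the 13443 genes with a symbol. Of the 40, 17 belong to DNA replication (14 with a probe), 8 are cyclins, kinases, a kinase inhibitor and checkpoint kinases of the cell cycle (8 with a probe) and 15 act in mitosis (12 with a probe). No probe matched *cdt1*, *pola1*, *rrm2*, *bub1*, *espl1* or *top2a*, so no value is given for them.

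A cell that is to divide first licenses its origins of replication, when Cdc6 and Cdt1 load the ring of MCM proteins, the helicase that will unwind the DNA. The kinases Cdc7 and Cdk2 then start the helicase together with Cdc45, DNA polymerases copy the strands on the sliding clamp PCNA, and ribonucleotide reductase and thymidylate synthase (*tyms*) supply nucleotides. Entry into mitosis is driven by Cdk1 with B-type cyclins and helped by polo-like and aurora kinases, and the spindle checkpoint holds back Cdc20 until the chromosomes are attached. These roles were worked out mainly in yeast, frogs and mammals. Most hepatocytes of an adult liver are at rest, and these transcripts are known to rise when liver tissue is lost and regrows.

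The fish were adult wild-type males, 3 months old, and the liver RNA of 5 fish was pooled for each array. One group was left untreated in control water, and 7 groups were kept for 96 h in water from sites H1 to H5 on the Hun River (H1 at a reservoir, H3 above and H4 below the city of Shenyang), D on the Dongzhou River and X on the Xi River, the latter being tributaries with industrial or domestic discharges. For D and X another label gives 97 h. The study describes a second array for each condition but D, which was not analysed here, so each condition has 1 array. Without replicates no p-value can be given here, and water, tank and fish pool cannot be told apart. The control, H1, H2 and D arrays lay on slide 1 and the H3, H4, H5 and X arrays on slide 2, and for the sites on slide 2 the values are therefore given against the other arrays of that slide as well.

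An array had between 24770 (H2) and 31017 (D) spots well above background, no spot was saturated, and repeat spots of a probe varied by 6.17% to 9.57% within an array. All 19 hepatocyte markers with a probe were well above background on every array, with median log2 differences from control between −0.03 and 0.16. Markers of other tissues were also present: 14 of 14 markers of exocrine pancreas were well above background on every array, and 10 of 10 intestinal markers were so in the control. Signals below are log2 quantile-normalized signals, on which 1 unit is a 2-fold difference. They are used to compare arrays, not genes, because probes differ in brightness. The level of a gene is the mean of its probes that were well above background on all 8 arrays, or, with none, its probe that was so on most arrays. A difference is site minus control, averaged over the probes well above background on both arrays, with the error that the scanner software gives the spots (median 0.20 to 0.21 for members). Where a gene was measured on 1 of the 2 arrays only, the difference is a bound, written as at least so many fold.

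Of the 34 members, 31 were well above background in the control and 34 of 34 were so at H4, the most of any array, while H3 had the fewest with 28. Among all spots, 62.94% were well above background in the control, 63.68% at H4 and 59.11% at H3. Differences of 2-fold or more from control, by probes measured on both arrays, were seen for 21 members at 1 or more sites. For all genes the shares are given site by site below. No share over the 7 sites together stands beside this count, so it cannot be read as many or few. H4 was the site of the highest measured difference for 21 members, and H1 and H3 held the lowest for 9 and 8, followed by D, H5 and X with 4 each. These tallies leave out bounds and have no counterpart over all genes. Of the members lowest at D, *cdc6*, *mcm3* and *plk1* were not measured at H1 and X, where their bounds were lower than their values at D. The 7 comparisons share the control array and are therefore not independent of each other.

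**Figure D1:**
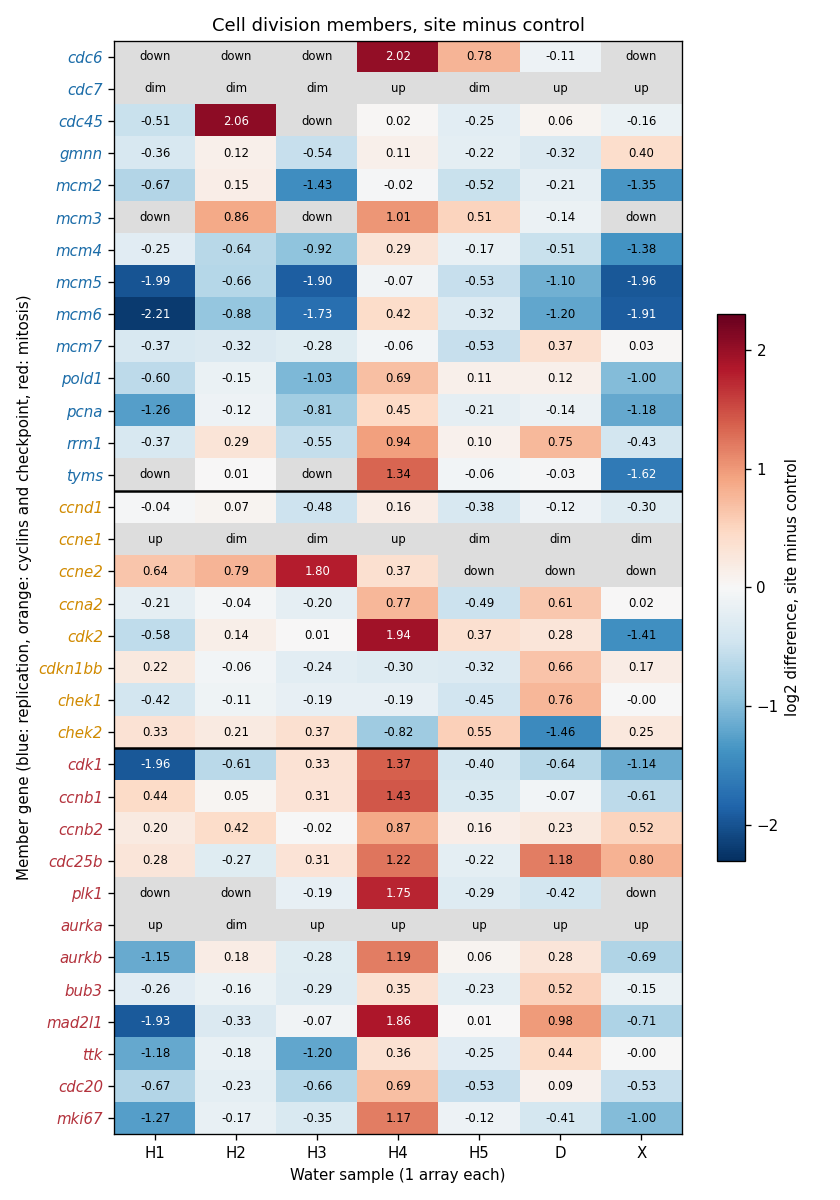
Log2 difference of each member with a probe (rows, grouped as replication, cyclins and checkpoint, and mitosis) at each site (columns, 1 array each) from the control array. Grey cells were not well above background on 1 array (up or down is the side of the bound) or on both (dim); the H4 column holds the highest value of most rows, up to 2.02 for *cdc6*.

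The mitotic genes were higher at H4. Of 11 measured mitosis members, 7 were at least 2-fold higher than control and none lower, with a median log2 difference of 1.19, and 11 of 11 were above 0. Over all members 11 of 31 were at least 2-fold higher, none lower, and 25 were above 0, with a median of 0.69, beside 4.68% of all measured genes higher and 3.43% lower with a median of −0.02. With bounds included, 12 of 34 members were higher (the 1 added is *cdc7*, on the larger of its probes' bounds), beside 6.44% of all genes. Against the median of the other arrays of slide 2, 15 of 29 members were higher at H4 and 1 lower, with a median of 1.03, beside 9.31% and 4.16% of all genes. That reference holds H3 and X, where members were low. Against the other 7 arrays 10 of 31 were higher and 1 lower, with a median of 0.67, beside 8.41% and 2.92%. Restricted to probes well above background on all 8 arrays, 6 of 24 were higher, with a median of 0.32, beside 3.34% of all genes, and with normexp background correction, which pulls dim signals together, 6 of 31 were higher, beside 2.8%.

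Cdk1 is the kinase that drives entry into mitosis. The log2 signal of *cdk1* was 9.67 in the control, 7.71 at H1, 9.05 at H2, 10.00 at H3, 11.03 at H4, 9.26 at H5, 9.03 at D and 8.53 at X. H4 was the highest array and H1 the lowest, and the difference from control was 1.37 ± 0.21 (spot error) at H4, −1.96 ± 0.25 at H1 and −1.14 ± 0.22 at X. Its partner cyclin B1 was read on its most often detected probe. That *ccnb1* probe gave 8.20 in the control, 6.66 at H1 (not well above background), 7.95 at H2, 8.19 at H3, 9.72 at H4, 7.81 at H5, 7.95 at D and 7.72 at X. H4 stood above the other arrays, and 4 probes measured on both arrays averaged 1.43 ± 0.14 there. At H1 the *ccnb1* difference of 0.44 rests on 1 probe, while 3 other probes measured in the control were not well above background at H1. The second B-type cyclin, *ccnb2*, differed by 0.87 ± 0.25 at H4 and by no more than 0.52 at any other site.

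Polo-like kinase 1 helps switch on Cdk1 and mature the spindle poles. The *plk1* signal was 7.65 in the control, 4.90 at H1, 7.37 at H2, 7.46 at H3, 9.41 at H4, 7.36 at H5, 7.24 at D and 6.40 at X, of which H1, H2 and X were not well above background. H4 was again the top array, 1.75 ± 0.26 above control, and the bounds were at least 1.95-fold lower at H1 and at least 2.34-fold lower at X. Aurora B, the kinase of the chromosomal passenger complex, gave *aurkb* signals of 8.78 in the control, 7.62 at H1, 8.95 at H2, 8.49 at H3, 9.96 at H4, 8.84 at H5, 9.05 at D and 8.08 at X. The H4 array was highest and the H1 array lowest, with differences of 1.19 ± 0.22 and −1.15 ± 0.28. The phosphatase *cdc25b*, which removes the inhibitory phosphates of Cdk1, measured 8.50 in the control, 8.77 at H1, 8.22 at H2, 8.80 at H3, 9.72 at H4, 8.28 at H5, 9.68 at D and 9.29 at X. H4 and D were nearly equal and highest, 1.22 ± 0.22 and 1.18 ± 0.22 above control, so this gene was the mitosis member that was 2-fold higher at a second site. Aurora A, a spindle pole kinase, was not well above background in the control. At H3 2 *aurka* probes had bounds of at least 3.17-fold and 2.93-fold higher. At H4 the bounds of 2 probes were 1.83-fold and 1.08-fold.

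The spindle checkpoint members did not move alike. The Cdc20 inhibitor *mad2l1* had a signal of 9.10 in the control, 7.18 at H1, 8.77 at H2, 9.03 at H3, 10.96 at H4, 9.12 at H5, 10.09 at D and 8.39 at X. This was the widest range over arrays of any member measured on all 8, 3.79, with H4 at 1.86 ± 0.21 and H1 at −1.93 ± 0.30 from control, and D at 0.98. The checkpoint kinase *ttk* measured 9.36 in the control, 8.18 at H1, 9.18 at H2, 8.16 at H3, 9.71 at H4, 9.10 at H5, 9.79 at D and 9.36 at X. Here H1 and H3 were low, −1.18 ± 0.24 and −1.20 ± 0.24, and H4 was within 0.36 of control. The checkpoint scaffold *bub3* stayed between −0.29 and 0.52 at all 7 sites.

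Ki-67, which coats mitotic chromosomes and is used as a marker of proliferating cells, was read on 2 probes. The *mki67* signal was 9.26 in the control, 7.99 at H1, 9.03 at H2, 8.92 at H3, 10.29 at H4, 9.06 at H5, 8.64 at D and 8.44 at X. H4 was highest and H1 lowest, with differences of 1.17 ± 0.13 over 3 probes and −1.27 ± 0.18 over 2 probes, and X lay at −1.0, just short of 2-fold. The activator of the anaphase-promoting complex, *cdc20*, measured 8.84 in the control, 8.17 at H1, 8.61 at H2, 8.18 at H3, 8.98 at H4, 8.31 at H5, 8.93 at D and 8.31 at X on the mean of 2 probes. Its arrays lay close together, and its measured probes had opposite signs at H4, D and X. At H4 the 3 measured *cdc20* probes gave −0.87, 1.79 and 1.15, so that the mean of 0.69 describes none of them.

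**Figure D2:**
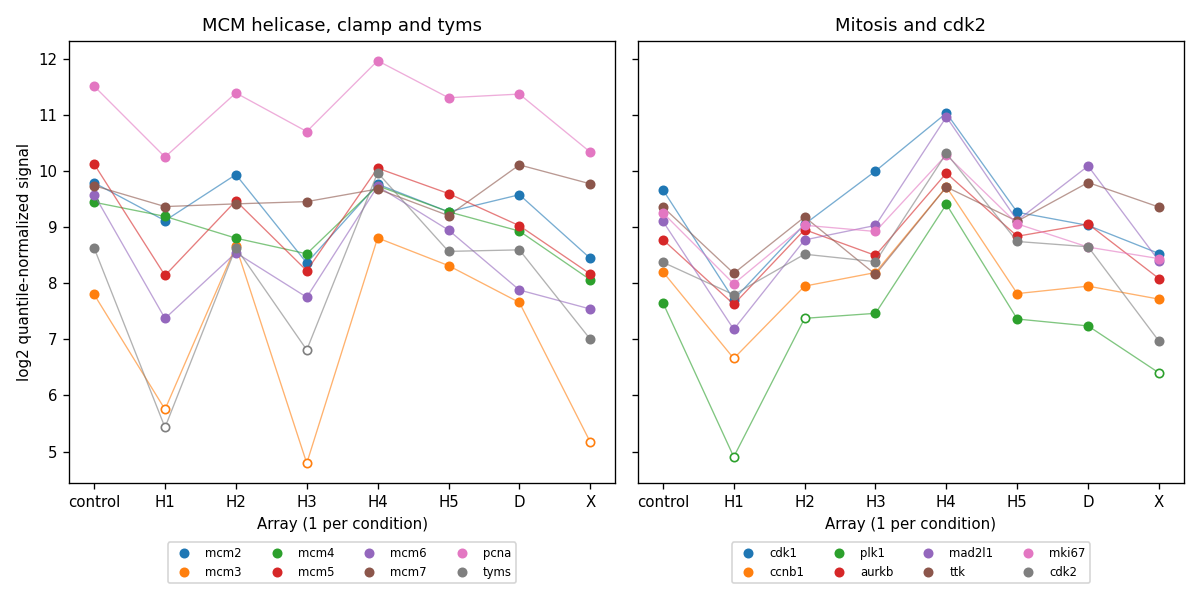
Log2 quantile-normalized signal (y axis) of 8 replication genes (left) and of 7 mitosis genes with *cdk2* (right) on each of the 8 arrays (x axis, 1 point per array, open where not well above background). In the right panel the H4 points of all genes but *ttk* lie above their other arrays, as for *cdk1* at 11.03, and in the left panel most genes dip at H1, H3 and X while *mcm7* stays within 0.53 of the control.

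Fewer replication members passed 2-fold at H4. Of 13 measured, 3 were higher and none was lower, beside 4.68% and 3.43% of all measured genes. The median log2 difference was 0.42, beside 1.19 for the mitosis members. The difference between the groups was not tested. Cdc6, the loader of the MCM ring, was among the 3 higher members. The measured *cdc6* probe gave 7.13 in the control, 5.49 at H1, 6.28 at H2, 6.47 at H3, 9.15 at H4, 7.91 at H5, 7.02 at D and 6.44 at X, with H1, H2, H3 and X not well above background. H4 was the highest array at 2.02 ± 0.31 above control, a 4.04-fold difference, and H5 was next at 0.78, while the second *cdc6* probe stayed near background on all 8 arrays. The kinase gene *cdc7*, which fires loaded origins, gave 5.67 in the control, 6.15 at H1, 5.66 at H2, 6.86 at H3, 8.54 at H4, 6.58 at H5, 6.60 at D and 6.87 at X, and was well above background at H4, D and X alone. At H4 both *cdc7* probes that were well above background on any array were so, with bounds of at least 3.70-fold and 1.67-fold higher. Thymidylate synthase, which makes the thymine nucleotide for DNA, gave *tyms* signals of 8.63 in the control, 5.43 at H1, 8.64 at H2, 6.81 at H3, 9.97 at H4, 8.57 at H5, 8.59 at D and 7.0 at X. Arrays H2, H5 and D matched the control closely, H4 was 1.34 ± 0.23 higher, X was −1.62 ± 0.33, and the probe was not well above background at H1 and H3, which gives bounds of at least 3.83-fold and 3.18-fold lower. The large subunit of ribonucleotide reductase, *rrm1*, came near the threshold at H4 with 0.94 ± 0.21. A gene related to its small subunit, *rrm2l*, was not counted among the members because 2 genes carry *rrm2* as an older name; its mean over 3 probes was 8.82 in the control, 10.72 at H4, 7.69 at H1 and 8.12 at X.

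Of the cyclins, kinases and checkpoint members, with a median of 0.16 at H4, 1 of 7 was 2-fold higher, beside 4.68% of all measured genes. This was *cdk2*, the kinase that pairs with cyclins E and A to start replication. Its signal was 8.37 in the control, 7.80 at H1, 8.52 at H2, 8.38 at H3, 10.31 at H4, 8.74 at H5, 8.65 at D and 6.97 at X. The H4 array stood 1.94 ± 0.23 above control and the X array 1.41 below it (−1.41 ± 0.33), with the remaining sites between −0.58 and 0.37. A second *cdk2* probe was well above background at H4 alone, where it read 8.33. The cyclin A2 gene *ccna2* had a mean of 0.77 at H4 from 3 probes that ranged from −0.37 to 2.29.

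Genes of the same pathways outside the 40 gave further counts at H4. The shares of all measured genes there were 4.68% higher and 3.43% lower. Of 31 measured genes of other replication factors, 7 were at least 2-fold higher and none lower, with a median of 0.51, and of 26 other mitosis genes 11 were higher and 1 (*kifc1*, a spindle motor, −1.40 ± 0.22) lower, with a median of 0.91. Other regulators of the cycle gave 3 higher and none lower of 23, with a median of 0.22. The 5 with the largest measured difference all belong to mitosis. They were *cks2*, a small subunit of Cdk complexes, at 3.56 ± 0.26, *pttg1*, the securin that guards sister chromatids, at 3.35 ± 0.24, the kinetochore gene *spc24* at 2.82 ± 0.35, *birc5a*, a survivin gene, at 2.57 ± 0.29, and *prc1b*, which bundles spindle microtubules, at 2.08 ± 0.33.

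Markers of germ cells moved with the H4 result. Of 16 germ cell markers with a probe, 15 were well above background at H4 against 10 in the control, and 9 of 10 measured on both arrays were at least 2-fold higher, with a median log2 difference of 3.07. The summed signal of the list was 2051 in the control, 21308 at H4, 7192 at H3 and 5332 at H5, and between 1933 and 2479 on the remaining arrays. The germ cell genes *ddx4*, *sycp3*, *hormad1* and *spo11* were not well above background in the control and were so at H4. At H3 and H5 the germ cell medians were 1.23 and 1.22, while the mitosis members had medians of −0.19 and −0.23 there. The mitosis genes outside the members had medians of 0.10 and −0.02. Of 25 measured at H3, 1 was 2-fold higher and 1 lower, beside 6.87% and 6.76% of all measured genes. Of 25 at H5, 2 were higher, with *birc5a* at 1.32 ± 0.30, and 1 lower, beside 2.84% and 2.11%. The summed signal of 9 Sertoli and Leydig cell genes was 863 in the control, 17562 at H4, 4072 at H3 and 6476 at H5. On the remaining arrays it was between 777 and 1372. Of the 6 genes of this list measured on both arrays at H4, 2 were 2-fold higher and 1 (*sox9a*, −1.57) lower, with a median of −0.03. With bounds, 4 of 8 were higher and 1 lower, with a median of 1.11, beside 6.44% of all genes higher. The higher genes included *insl3* (5.93), which was also higher at H3 (4.78) and H5 (5.27). Of 13 measured leukocyte markers, 2 were 2-fold higher at H4, none was lower and 10 were above 0, with a median of 0.14. The shares of all measured genes were 4.68% higher and 3.43% lower. The leukocyte list had a summed signal of 16355 in the control and 24086 at H4, the highest of any array. All 8 measured red cell markers were above 0 at H4, none past 2-fold, with a median of 0.31. This was not particular to H4. All 8 were above 0 at X too, with a median of 0.73, and 7 of 8 at D, with a median of 0.31. The red cell medians at H1, H2, H3 and H5 were −0.36, −0.01, −0.42 and −0.20. Markers of exocrine pancreas (median −0.25) and intestine (−0.20) differed little. The part of germ cell, leukocyte or red cell RNA in the H4 result was not tested.

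**Figure D3:**
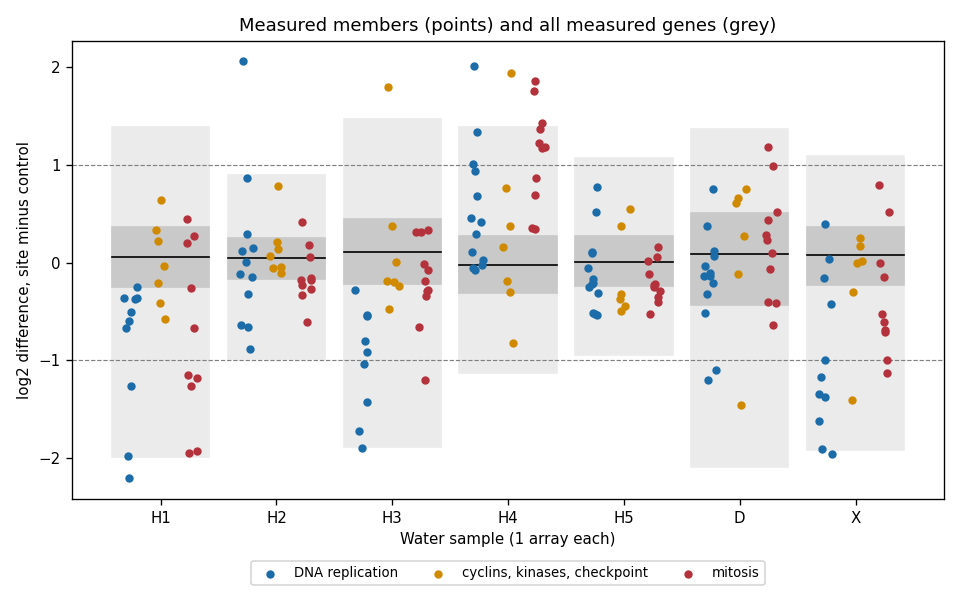
Log2 difference from control (y axis) of every measured member (points, coloured by group) at each site (x axis, 1 array each), with all measured genes behind as the median (line), the middle 50% (dark grey) and the middle 95% (light grey). Dashed lines mark 2-fold; at H4 the mitosis points all lie above 0, and at H1, H3 and X the lowest point is a replication gene.

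The replication members were low at H1, H3 and X, where their lowest measured value was that of an MCM gene. At H1 the mitosis members had a lower median than the replication members, −0.91, as given below. At X, 7 of 11 measured replication members were at least 2-fold lower and none higher, with a median of −1.18, beside 6.35% of all measured genes lower. At H3 the count was 4 of 9 with a median of −0.92, beside 6.76%, and at H1 it was 3 of 10 with a median of −0.55, beside 7.27%. None of the replication members measured at H1 or H3 was above 0. The other replication factors, outside the members, were less low at these sites. None of 30 measured at H1, 29 at H3 and 30 at X was 2-fold lower. Their medians were −0.33, −0.28 and −0.31, with 24, 19 and 23 of them below 0. With bounds, 1 of 31 was 2-fold lower at H1, 1 of 31 at H3 and 1 of 32 at X. In bulk tissue, fewer cells of a type and less of an RNA per cell cannot be told apart, and this holds for each value here.

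The Mcm2 to Mcm7 proteins form the 6-part ring, and their genes split into 5 that were low at some sites and 1 that was not. Read on 2 probes, *mcm5* measured 10.12 in the control, 8.14 at H1, 9.47 at H2, 8.22 at H3, 10.05 at H4, 9.60 at H5, 9.02 at D and 8.17 at X. H1, H3 and X lay close together at about a 4-fold lower level, −1.99 ± 0.17, −1.90 ± 0.19 and −1.96 ± 0.17, with D at −1.10 ± 0.15. Probe 3 of *mcm5* was not well above background in the control and was so at H1, H2, H3, H4, H5 and D, which is the other direction. At D its bound was at least 2.39-fold higher, while the 2 measured *mcm5* probes gave −1.42 and −0.77. For *mcm6* the signals were 9.58 in the control, 7.37 at H1, 8.54 at H2, 7.75 at H3, 9.73 at H4, 8.95 at H5, 7.88 at D and 7.54 at X. The same 4 arrays were low, with differences of −2.21 ± 0.28 at H1, −1.73 ± 0.19 at H3, −1.20 ± 0.16 at D and −1.91 ± 0.18 at X. At D the 2 *mcm6* probes gave −0.70 and −1.70, and the signals listed are those of the second alone.

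The remaining subunits were lower at fewer sites. On 2 probes, *mcm2* gave 9.79 in the control, 9.11 at H1, 9.94 at H2, 8.36 at H3, 9.77 at H4, 9.27 at H5, 9.58 at D and 8.44 at X. H3 and X were low at −1.43 ± 0.19 and −1.35 ± 0.20, and at H2 the probes went opposite ways, −0.92 and 1.21. The *mcm4* signals were 9.44 in the control, 9.19 at H1, 8.80 at H2, 8.52 at H3, 9.74 at H4, 9.27 at H5, 8.93 at D and 8.06 at X. X was the lowest array at −1.38 ± 0.19, and H3 at −0.92 did not reach 2-fold. Probe 2 of *mcm4* went the other way at H3, where it read 9.76 against 6.63, not well above background, in the control, a bound of at least 8.60-fold higher, and it was also well above background at H4. For *mcm3*, 7.80 was measured in the control, 5.75 at H1, 8.66 at H2, 4.79 at H3, 8.81 at H4, 8.31 at H5, 7.66 at D and 5.17 at X. The H1, H3 and X arrays were not well above background, with bounds of at least 2.16-fold, 1.79-fold and 2.59-fold lower, and H4 was just past the threshold at 1.01 ± 0.25. In contrast *mcm7*, with 4 probes, stayed between −0.53 and 0.37 at all 7 sites.

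Over the helicase, 4 of 5 measured subunits were 2-fold lower at X, 3 of 5 at H3, 2 of 5 at H1 and 2 of 6 at D, and 0 of 6 at H2, H4 and H5. The shares of all measured genes lower at X, H3, H1 and D were 6.35%, 6.76%, 7.27% and 10.7%. At D each of the lower subunits had a measured probe past 2-fold and another short of it. The helicase medians were −1.38 at X, −1.43 at H3, −0.67 at H1, −0.36 at D, −0.42 at H5, −0.48 at H2 and 0.13 at H4.

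Among the genes of the replication fork, the clamp gene *pcna* had a signal of 11.51 in the control, 10.25 at H1, 11.39 at H2, 10.70 at H3, 11.96 at H4, 11.30 at H5, 11.37 at D and 10.34 at X. H1 and X were low by −1.26 ± 0.21 and −1.18 ± 0.21, H3 was between them and the control at −0.81, and the other sites lay within 0.45 of control. The polymerase delta catalytic subunit *pold1* measured 8.89 in the control, 8.29 at H1, 8.74 at H2, 7.85 at H3, 9.57 at H4, 9.0 at H5, 9.01 at D and 7.89 at X. H3 and X reached the threshold barely, at −1.03 ± 0.20 and −1.0 ± 0.17. The helicase cofactor gene *cdc45* had 7.39 in the control, 6.89 at H1, 9.45 at H2, 6.94 at H3 (not well above background), 7.70 at H4, 7.05 at H5, 7.41 at D and 7.11 at X. Only H2 stood out, 2.06 ± 0.28 above control, and the second *cdc45* probe did not share it, reading 7.45 in the control and 6.90, not well above background, at H2. The replication inhibitor geminin, *gmnn*, stayed between −0.54 and 0.40.

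**Figure D4:**
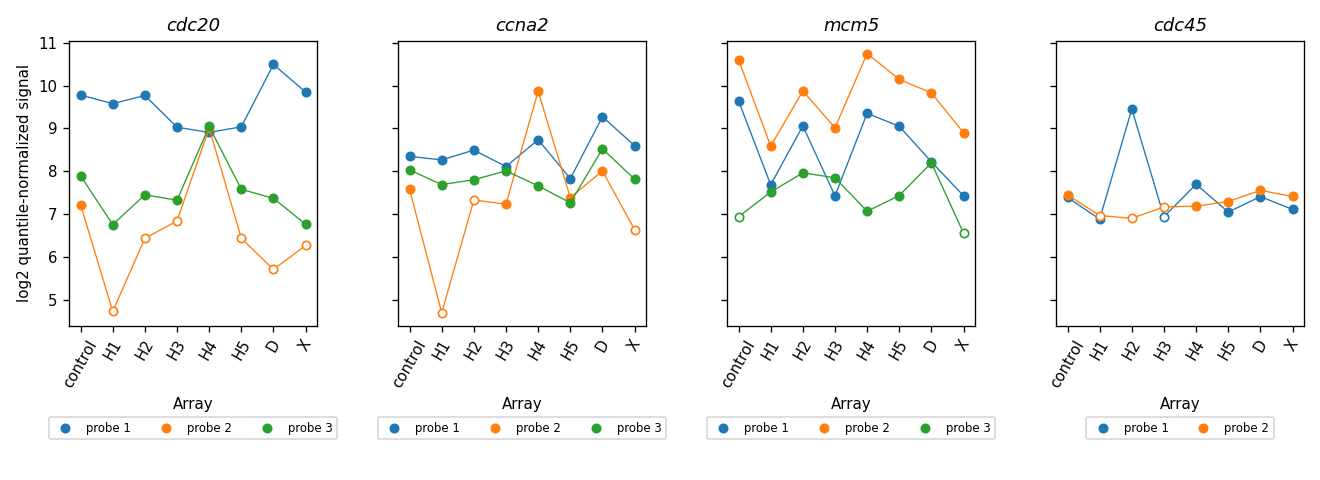
Log2 quantile-normalized signal (y axis) of each probe of *cdc20*, *ccna2*, *mcm5* and *cdc45* with a value well above background on at least 1 array, on the 8 arrays (x axis; open points were not well above background). The *cdc20* probes cross at H4, 1 *ccna2* probe reaches 9.87 at H4 while another is at 7.66, probe 3 of *mcm5* is dim in the control, and 1 *cdc45* probe reaches 9.45 at H2 while the other does not.

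Counted over all members at H1, 8 of 27 were at least 2-fold lower and none higher, with a median of −0.42, beside 7.27% of all measured genes lower and 5.15% higher with a median of 0.06. Of these, 5 were mitosis members (*cdk1*, *mad2l1*, *mki67*, *ttk* and *aurkb*) of 10 measured, with a group median of −0.91, and 3 were replication members. With bounds, 10 of 33 members were lower at H1, beside 8.52% of all genes. At X, 9 of 27 were lower and none higher with a median of −0.53, beside 6.35% and 3.3% of all genes with a median of 0.08, and with bounds 11 of 33 were lower, beside 8.44%. Of the 10 measured mitosis members 1, *cdk1*, was 2-fold lower at X, with a group median of −0.57. Against the other arrays of slide 2, X had 7 of 28 members lower and none higher, with a median of −0.35, beside 5.89% and 3.01% of all genes. With normexp background correction 5 of 27 members were lower at H1 and 3 of 27 at X, beside 5.41% and 4.86% of all genes.

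At H3, 5 of 27 members were lower and 1 higher with a median of −0.28, beside 6.76% and 6.87% of all measured genes with a median of 0.11. Against the other arrays of slide 2 the H3 count was 3 lower and 1 higher of 27, with a median of −0.34, beside 4.97% and 5.18%. With bounds, 6 of 32 were lower and 2 higher at H3, beside 9.07% and 7.77% of all genes. The member that was 2-fold higher at H3 by a probe measured on both arrays was cyclin E2, the partner that turns Cdk2 on at the start of replication. The *ccne2* signal was 7.30 in the control, 7.94 at H1, 8.09 at H2, 9.10 at H3, 7.67 at H4, 6.41 at H5, 4.76 at D and 4.68 at X. H3 was highest at 1.80 ± 0.30 above control, and at H5, D and X the probe was not well above background, with bounds of at least 1.35-fold, 3.13-fold and 1.83-fold lower. The bounds at D and X differ through the lowest signal well above background, which was 5.65 on the D array and 6.43 on the X array. They do not show a difference between these sites. Cyclin E1, *ccne1*, was well above background at H1 and H4 alone, with bounds of at least 1.66-fold and 1.64-fold higher.

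Markers of neighbouring organs were low at H1, H3 and X, and also at D and, less so, at H2. Those of exocrine pancreas were also somewhat low at H5. The summed signal of 14 exocrine pancreas genes was 1403836 in the control, 310734 at H1, 136565 at H3, 457622 at D, 291373 at X and 1181095 at H4, and the medians were −2.49 at H1, −3.90 at H3, −1.73 at D and −2.66 at X. At H2 that sum was 720650 and the median −1.07, with 7 of 14 genes 2-fold lower, beside 2.41% of all measured genes. The replication members had a median of −0.06 there. At H5 the pancreas sum was 923701 and the median −0.67, with 3 of 14 genes 2-fold lower, beside 2.11% of all measured genes. The replication members had a median of −0.21 at H5, and none was 2-fold lower. The MCM helicase had a median of −0.48 at H2, with *mcm5* at −0.66, *mcm6* at −0.88 and 2 of 6 subunits above 0. At D, *mcm5* and *mcm6* were −1.10 and −1.20. The 10 intestinal genes, with those measured on the control array only placed at their bound (3 at H3, 1 at D and 2 at X), had medians of −2.58 at H1, −6.24 at H3, −6.91 at D and −6.18 at X, and −0.60 at H2. At H5 the intestinal median was −0.14. The leukocyte median was −1.60 at H3, −0.54 at H1, −0.52 at H5, −0.37 at X, −0.33 at H2 and −0.09 at D. The part of RNA from these cells in the low replication values was not tested.

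**Figure D5:**
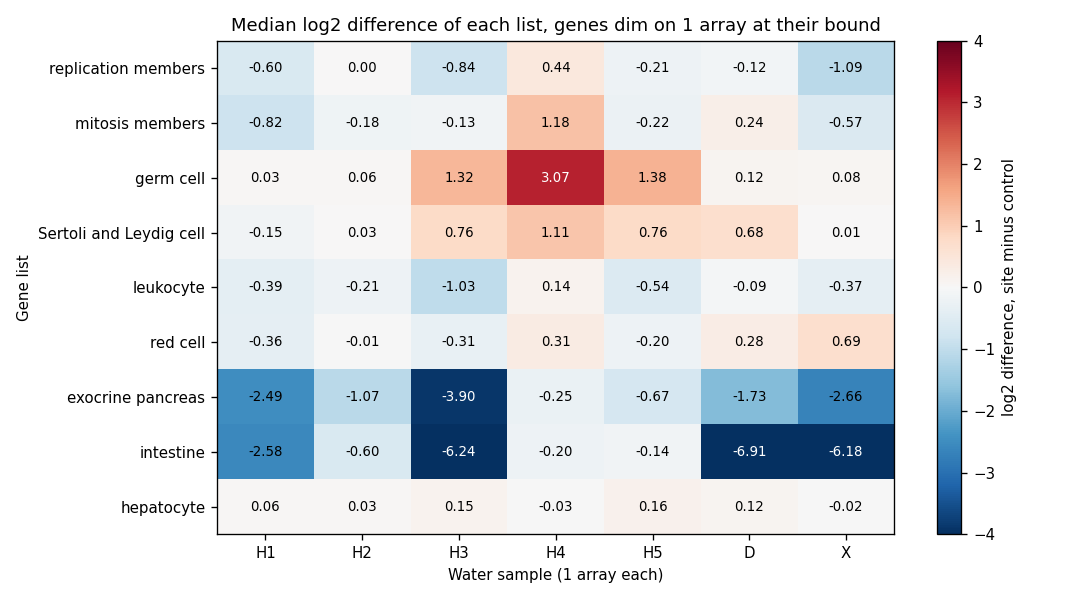
Median log2 difference from control of the replication and mitosis members and of 7 marker lists (rows) at each site (columns, 1 array each), with genes measured on 1 array only placed at their bound; the colour scale ends at 4 in either direction. The germ cell list is highest at H4 (3.07), and the pancreas and intestine lists are low at H1, H3, D and X, where the replication members are −0.60, −0.84, −0.12 and −1.09.

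At D the members went both ways. Of 30 measured, 1 (*cdc25b*) was at least 2-fold higher and 3 (*mcm5*, *mcm6* and *chek2*) were lower, with a median of 0.02, beside 6.84% and 10.7% of all measured genes with a median of 0.09. With the bound of *ccne2*, which at X did not reach 2-fold on a similar signal, 4 of 33 were lower, beside 11.9%. These shares are near those of all genes or below them. The mitosis members had a median of 0.23, the replication members −0.14. Checkpoint kinase 2 acts when DNA strands break. The *chek2* signal was 12.10 in the control, 12.43 at H1, 12.31 at H2, 12.47 at H3, 11.28 at H4, 12.65 at H5, 10.65 at D and 12.35 at X. The D array was lowest at −1.46 ± 0.21, H4 was next at −0.82 ± 0.20, and the other sites lay between 0.21 and 0.55. Its counterpart for stalled forks, *chek1*, was highest at D with 0.76 ± 0.23.

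H2 and H5 showed few differences. At H2, 1 of 29 measured members was at least 2-fold higher (*cdc45*, on the 1 probe described above) and none was lower, with a median of −0.06, beside 1.81% and 2.41% of all measured genes with a median of 0.05. At H5 none of 30 passed 2-fold in either direction, with a median of −0.22, beside 2.84% and 2.11% with a median of 0.01. Against the other arrays of slide 2, which hold H4 with its high values and H3 and X with their low ones, 4 members were higher at H5 and 1 lower of 28, with a median of 0.05, beside 6.0% and 2.07% of all genes.

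The 13 members with no measured 2-fold difference at any site were *gmnn*, *mcm7*, *rrm1*, *ccnd1*, *ccna2*, *cdkn1bb*, *chek1*, *ccnb2*, *bub3* and *cdc20*, together with *cdc7*, *ccne1* and *aurka*, which were not well above background in the control. The smallest range over sites was that of cyclin D1, which carries growth signals into the cycle, as *ccnd1* lay between −0.48 and 0.16. The Cdk inhibitor *cdkn1bb*, measured on 4 probes, lay between −0.32 and 0.66 with its highest value at D. Where a member had 2 or more measured probes at a site, in 100 member and site pairs from 15 genes, the probes differed by a median of 0.40 and had opposite signs in 32 pairs. In 4 of these 32 a probe was past 2-fold, namely *mcm2* at H2, *ccna2* and *cdc20* at H4, and *cdc20* at X.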

How the data were processed

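Liver RNA of control fish and of fish from 7 sites was measured on 1-colour Agilent zebrafish arrays (43803 spots that are not controls), 1 array per condition. The authors deposited scanner output of Agilent Feature Extraction (version 10.7 per the labels, 11.5.1.1 in the file headers) with the background-subtracted fluorescence intensity of each spot (the processed signal), its error and its marks. They also deposited a table of log2 values, whose scale and centring are not stated. Set against the scanner values it equals the log2 signal minus 1 offset per array near the 75th percentile for 99.97% to 99.98% of probes within 0.01, with column medians from −2.472 to −2.152, although the methods name quantile normalization.

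Here log2 processed signals were quantile normalized over the 8 arrays and spots of a probe were averaged. A comparison left out probes with at least 50% of their spots marked by the scanner software as uneven or outlying on either array. Probes were named by accession (26094 of 43603 probes, through a RefSeq table used for names only), and no sequence was used here. For a bound, the bright signal was divided by the dim probe's own signal or, if greater, by the lowest signal well above background on the dim array. Where a gene had bounds from several probes, the largest was counted. Differences of at least 2-fold were counted. The spot error covers error within an array only. The members, lists and tests were chosen with earlier results of these data known. The text gives all 8 values for members past 2-fold at 1 or more sites and for *cdc6*, *cdc7* and *cdc20*, and names the 5 pathway genes with the largest difference at the site with most changed members. The 11 alternatives, planned before these values were computed, covered normalization, background correction, the filter on dim probes, marked probes, the probe summary, the reference array and the fold threshold. The normexp correction (offset 50) used the median spot signal. The procedure was tested on simulated data. The tools were limma 3.58.1 in R 4.3.3 (normexp) and, in Python 3.11.15, matplotlib 3.10.9, pandas 2.3.3, numpy 2.4.6 and scipy 1.17.1.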

Additional observations from a re-analysis of the deposited data

Results flagged for a closer look

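The 6 members named here passed 2-fold in opposite directions at different sites, each on 1 array per site, and the difference between sites was not tested. Log2 differences from control were −1.96 at H1 and 1.37 at H4 for *cdk1*, −1.93 and 1.86 for *mad2l1*, −1.27 and 1.17 for *mki67*, and −1.15 and 1.19 for *aurkb*. At X and H4 they were −1.62 and 1.34 for *tyms* and −1.41 and 1.94 for *cdk2*.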

How the results depend on the processing

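The median difference of the members and the number past 2-fold (both directions together) were recomputed for each site under 11 alternatives. No difference of a named gene past 2-fold changed sign, but medians near 0 did change sign: H2 went from −0.06 to 0.07 (same slide) and 0.09 (other 7 arrays), H5 from −0.22 to 0.055 (same slide) and D from 0.02 to −0.01 (normexp). With 75th percentile normalization, the authors' log2 values or the other 7 arrays as reference, the median at D was 0.24, 0.24 and 0.27 in place of 0.02; the first 2 also moved the median of all genes to 0.24 at D and −0.13 at H4, and the split of all genes at D to 10.2% higher and 8.16% lower. The normexp correction gave 6 members at H4, 5 at H1, 3 at X and 1 at D, and a median of −0.32 at X. Accepting probes well above background on 1 of the 2 arrays gave 15 at H1 and 0 at H2. Without a filter the median at H1 was −0.68 and the count at H2 was 0. With probes well above background on all 8 arrays, H4 had 6 and a median of 0.32. The brightest probe of each gene gave 2 at D. Against the same slide H2 had 2, H4 a median of 1.03, and H5 5 with the median given above. Against the other 7 arrays H2 and D had 2 each. At 3-fold there were 4 at H1 and at H4, 3 at H3 and at X, and 0 at D. Why these values moved was not tested. The other 121 values of this kind stayed within 1.5-fold of the count or within the spread of the members. For named genes 1034 values stayed and 300 moved. No paired analysis was possible because each group has 1 array. The number of arrays limits the precision, and members near the scanner background have bounds only.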
